A study of Homo sapiens with 12 samples.

Results

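Complement transcripts of HK2 cells were examined in 9 genes: the central component C3, the proteases C1R, C1S and CFB, the soluble regulators CFI and SERPING1, and the membrane regulators CD46, CD55 and CD59. They were chosen by name, as genes of complement components and regulators, out of 58278 genes listed in each library. Earlier results of these data were known when they were chosen. All 9 were among the 24342 genes tested. SERPING1 passed the filter on low counts only through the libraries that received a short-chain fatty acid (SCFA). HK2 is an immortalised line of human proximal tubular epithelial cells (TECs). Of its 6 groups of 2 biological replicates each, Ctrl was untreated and TN received TNF-α at 5 ng/mL for 3 h. PRTN and BUTN received propionate at 15 mM or butyrate at 3 mM for 24 h before the same TNF-α, and TNPR and TNBU received them for 24 h after it. The labels' general treatment text names thapsigargin and JQ1 instead, and the treatments used here are those in the label of each library. No group received an SCFA without TNF-α, and none was kept for 24 h after TNF-α without an SCFA, so a change in TNPR or TNBU cannot be told apart from the time that passed after TNF-α.

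Complement is a cascade of plasma proteins that mark surfaces for removal and lyse cells. C1R and C1S are the proteases of the C1 complex of the classical pathway, CFB carries the protease of the alternative pathway convertase, and both pathways cleave C3. The liver makes most of the circulating proteins, and kidney tubular cells also make C3 and other components. Host cells are shielded by CD46, a cofactor for the inactivation of C3b and C4b, by CD55, which speeds the decay of the convertases, and by CD59, which blocks the membrane attack complex. In solution, CFI cleaves C3b and C4b, and the C1 inhibitor encoded by SERPING1 inactivates C1R and C1S.

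C3, C1R and C1S transcripts were lower when propionate preceded TNF-α, by comparison with both TN and Ctrl, and CFB and CD59 were lower than in TN. With butyrate before TNF-α, C3 was lower and CFI higher than in TN. When the SCFAs followed TNF-α, C1R and C1S were higher than when they preceded it, with either SCFA, in the fit of all 12 libraries. Fitted on the libraries compared alone, only C1S with propionate still met the thresholds given below. Order of addition and hours since TNF-α cannot be told apart. SERPING1, with at most 1 read in any Ctrl or TN library, had 34 to 81 reads in every SCFA library.

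Values are expected counts made by the authors, given here as CPM (the count scaled to library size, with TMM factors), for each library. A difference was called where limma-voom, fitted to all 12 libraries, gave a fold change over 1.5 and a Benjamini-Hochberg adjusted p under 0.05 over all tested genes. The labels do not say how the replicates were cultured, so the p-values measure the spread between these samples. Library totals were 27269986 to 33851130 counts. Replicates of TNPR and TNBU lay farther apart than those of the other groups, with a median absolute log2 difference of 0.106 and 0.127 over genes of at least 10 CPM, against 0.0454 to 0.0863 elsewhere. Of the 10 proximal tubule markers, PAX8 had 364 and GGT1 221 CPM in Ctrl, whereas LRP2 and HNF4A were listed at 0 and SLC34A1 at 0.0702 CPM. Of the 6 leukocyte markers PTPRC, CD3E and CD79A, and of the 4 hepatocyte markers ALB, APOA1 and TTR, stayed under 0.2 CPM in all 6 groups, and the hepatocyte gene FGB had 25.8 CPM in Ctrl and 4.86 to 8.29 in the SCFA groups. With an SCFA the summed level of 10 proximal tubule markers was 217 to 251 CPM per library, against 576 to 627 without. Its lower sum came from PAX8 and GGT1, while group means of AQP1 were 6.31 to 14.8 CPM with and 0.439 to 0.540 without, of CUBN 2.63 to 3.46 and 1.28 to 1.75, of ANPEP 0.999 to 2.10 and 0 to 0.0515, and of LRP2 0.447 to 0.869 and 0. The summed level of 4 fibroblast markers was 203 to 254 CPM with and 52.6 to 59.6 without. Of these, DCN was lower with an SCFA (group means of 0.496 to 0.556 against 0.770 to 0.989 CPM) and the others higher. The sum of 6 epithelial markers was 1878 to 2467 CPM with and 1430 to 1494 without. In it KRT8, KRT18, KRT19 and CDH1 were higher with an SCFA. EPCAM (group means of 15.3 to 22.1 against 56.1 to 57.1 CPM) and CDH2 (145 to 155 against 277 to 308) were lower. The 6 leukocyte markers summed to 27.5 to 52.4 CPM with an SCFA and 30.4 to 36.3 without, most of it CD68, with CD14 at group means of 2.38 to 3.15 against 0.765 to 0.914 and LYZ at 0.188 to 1.02 against 0.0172 to 0.0745, and 3 endothelial markers to 2.18 to 3.61 against 0.143 to 0.287. Their part in the results below was not tested, and in bulk RNA fewer cells of a type and less RNA per cell cannot be told apart.

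Per kilobase of exon, C3 and CFB were the most abundant of the 9 transcripts in Ctrl, with 125 and 61.0 CPM per kb. CD59 had 31.2 and CD46 21.6 CPM per kb, and C1R 7.34 and C1S 4.92. CFI at 1.24 and CD55 at 0.977 CPM per kb were lower still. Over the 12 libraries, 1.12% of the genes with a known length ranked above C3, 1.55% above CFB, 49.6% above CFI and 76.3% above SERPING1.

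**Figure D1:**
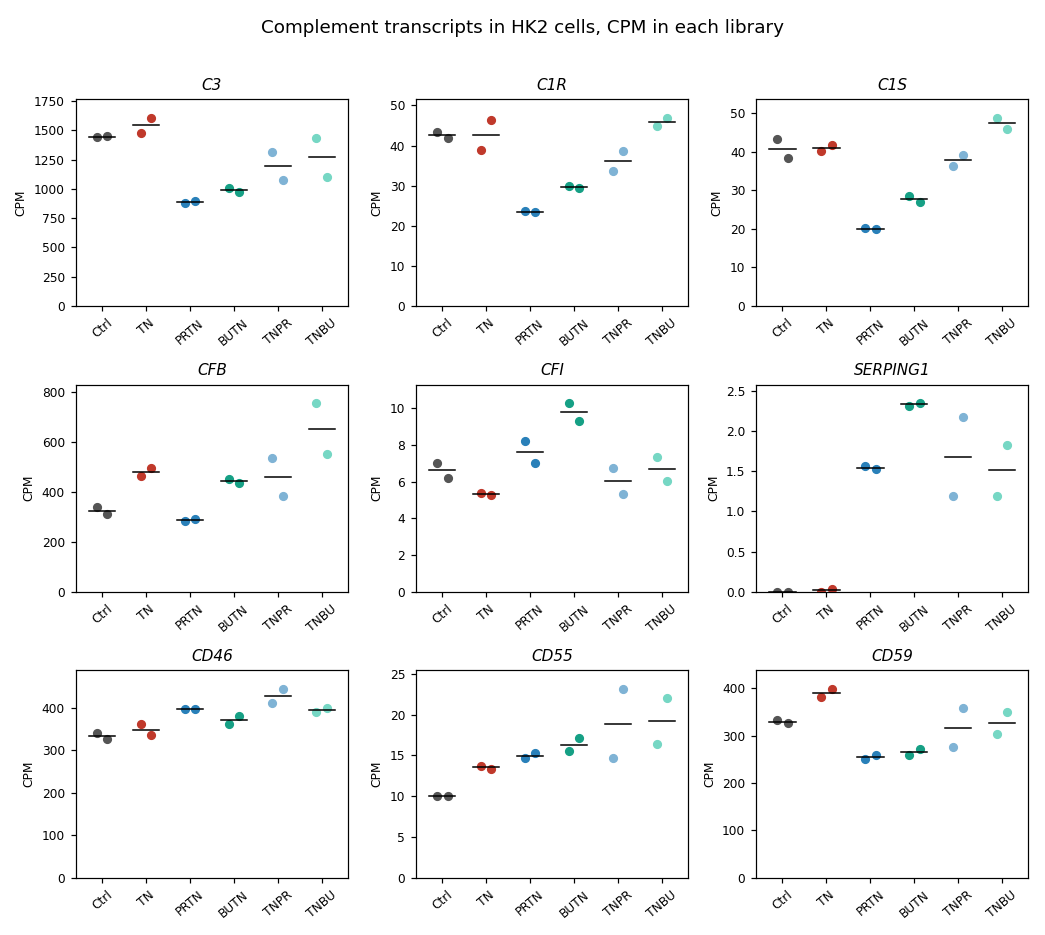
CPM of the 9 complement transcripts on linear axes from 0, with 1 point per library, 2 per group, and a bar at the group mean. C3, C1R and C1S are lowest in PRTN and next lowest in BUTN, SERPING1 lies near 0 in Ctrl and TN and between 1.18 and 2.34 CPM in all SCFA libraries, and points of 1 group lie farthest apart in TNPR and TNBU for most genes.

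The sequences upstream of C1R and CFB are shown because these genes represent the classical and alternative arms among the transcripts that moved. They come from the RefSeq table of promoters on GRCh38.p14, cut to the part that overlaps no annotated exon, and 6 of the 9 genes had an entry (C1R, CFB, CFI, CD46, CD55 and CD59). The C1R stretch is chr12:7092541-7092695 on the minus strand, from 250 to 96 bases before the start. The CFB stretch is chr6:31945845-31945974 on the plus strand, from 250 to 121 bases before the start and within the annotated span of the gene, and the capitals mark a match on the other strand to the interferon-stimulated response element, GAAANNGAAA, which begins 140 bases before the start.
C1R: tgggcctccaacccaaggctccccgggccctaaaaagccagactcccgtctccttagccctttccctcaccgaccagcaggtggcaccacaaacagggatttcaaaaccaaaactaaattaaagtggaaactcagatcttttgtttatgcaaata
CFB: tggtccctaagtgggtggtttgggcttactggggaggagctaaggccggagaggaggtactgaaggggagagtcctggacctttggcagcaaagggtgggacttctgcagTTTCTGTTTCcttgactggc
Of the 250 upstream bases in all 35116 RefSeq windows, 3.02% held this element on either strand, 5.21% the NF-κB consensus, 6.57% the AP-1 consensus TGANTCA and 0.0427% the C/EBP consensus. Among the windows of the 6 genes, the other matches were to AP-1, 117 and 23 bases before 1 of the 4 annotated starts of CD59. A match describes letters only.

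C3 (ENSG00000125730.16, chr19:6677704-6730562, minus strand in GRCh38) had 1439 and 1448 CPM in Ctrl and 1476 and 1608 in TN. In PRTN it had 877 and 898 CPM and in BUTN 1006 and 969. In TNPR it had 1315 and 1079 CPM and in TNBU 1436 and 1101. The PRTN and BUTN libraries lay below every other library, and TNPR and TNBU overlapped each other and lay below both TN libraries. Against TN, the log2 fold change was -0.80 (SE 0.11, limma adjusted p = 4.32e-05) in PRTN and -0.64 (SE 0.11, adjusted p = 0.000270) in BUTN, and both were called lower. Against TN it was -0.37 in TNPR (adjusted p = 0.0104) and -0.29 in TNBU (adjusted p = 0.0338), short of the fold threshold. PRTN was also called lower than Ctrl, at -0.70 (SE 0.11, adjusted p = 0.000129), and BUTN, at -0.55, was not, except without BUTN replicate 1 (-0.59, adjusted p = 0.00510). Scaling to library size alone took the value in BUTN vs TN to -0.49, short of the fold threshold. C3 overlaps GPR108 on its strand, which had 35.8 CPM in TN and 45.9 in PRTN.

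TNF-α alone gave no call. For CFB (ENSG00000243649.8, chr6:31945650-31952086, plus strand) the libraries had 337 and 311 CPM in Ctrl and 463 and 493 in TN, without overlap. Its log2 fold change of 0.56 (SE 0.15) had a limma adjusted p of 0.0630 and lay below the fold threshold. Over the alternatives it was 0.51 to 0.62, with adjusted p of 6.09e-05 to 0.277. In TN vs Ctrl 0 of the 9 genes were called by limma, edgeR or DESeq2, while limma called 1.3% of all tested genes. Of the 9, 2 (CFB and CD59) had an unadjusted limma p under 0.05, and the share of all genes under it was not computed.

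In PRTN the CFB level was 281 and 289.8 CPM, below both Ctrl libraries. The other SCFA pairs had 452 and 434 (BUTN), 534 and 383 (TNPR), and 752 and 551 (TNBU). CFB thus ranged over both sides of TN: PRTN was lower than TN by a log2 fold change of -0.74 (SE 0.15, limma adjusted p = 0.000932), and BUTN (-0.11, adjusted p = 0.549) and TNPR (-0.08, adjusted p = 0.678) were not called. TNBU was higher than Ctrl by 0.99 (SE 0.15, adjusted p = 8.80e-05), and its 0.43 against TN was not called (adjusted p = 0.0226), except with library size alone (0.62) or without TNBU replicate 2 (0.63). C2 and a read-through gene (ENSG00000244255) overlap CFB on its strand, and no group had more than 1.43 or 0.753 CPM of them.

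C1R (ENSG00000159403.15, chr12:7080214-7092540, minus strand) and C1S (ENSG00000182326.14, chr12:6988259-7071032, plus strand) lie on opposite strands with starts 104281 bases apart. The CPM of C1R in the library pairs were 43.3 and 41.9 (Ctrl), 38.9 and 46.5 (TN), 23.6 and 23.5 (PRTN), 29.9 and 29.3 (BUTN), 33.7 and 38.8 (TNPR), and 44.97 and 46.96 (TNBU). Those of C1S were 43.2 and 38.4 (Ctrl), 40.2 and 41.9 (TN), 20.1 and 19.95 (PRTN), 28.5 and 26.96 (BUTN), 36.3 and 39.2 (TNPR), and 48.9 and 45.8 (TNBU). For both genes PRTN and BUTN lay below all other libraries, PRTN below BUTN, and Ctrl and TN overlapped. The ratio of C1R to C1S CPM was 0.92 to 1.18 over the 12 libraries, highest in the PRTN libraries (1.17 and 1.18). Against TN, PRTN was lower by -0.86 (SE 0.09, limma adjusted p = 6.67e-06) for C1R and by -1.03 (SE 0.08, adjusted p = 3.86e-07) for C1S, as log2 fold changes. Against Ctrl they were -0.86 (adjusted p = 6.50e-06) and -1.03 (adjusted p = 4.18e-07).

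The BUTN values, -0.52 for C1R and -0.57 for C1S against TN (limma adjusted p = 0.000374 and 5.99e-05), fell short of the fold threshold. They passed it without TN replicate 1 (-0.68 and -0.62). C1S also did so without BUTN replicate 1 (-0.63) or with the filter of 1 count in 1 library (-0.59), and against Ctrl, from -0.56, without Ctrl replicate 2 (-0.64) or BUTN replicate 1 (-0.61). C1RL, which overlaps C1R on the same strand, was 25.4 CPM in TN and 5.75 in PRTN. LPCAT3, which overlaps C1S on the opposite strand, was 34.1 CPM in TN and 90.7 in PRTN. The strand setting of the counting is not given in the sources used here, so reads from C1S and LPCAT3 may not be separable. Propionate and butyrate were given at different doses, so their values stand side by side without a test between them.

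In PRTN vs TN, 6 of the 9 genes were called, 5 lower (C3, C1R, C1S, CFB and CD59) and 1 higher (SERPING1), where 40.6% of all tested genes were called. In BUTN vs TN it was 3 of 9 (C3 lower, CFI and SERPING1 higher), against a share of 37.9%. SERPING1 was the 1 gene called in TNPR vs TN and in TNBU vs TN, with 41.8% and 41.6% of all genes called. Over the 9 genes the median was a log2 fold change of -0.62, -0.11, -0.08 and 0.21 in PRTN, BUTN, TNPR and TNBU vs TN, and that of all tested genes 0.09, 0.08, 0.12 and 0.09. Against Ctrl, 4 genes were called in PRTN (C3, C1R and C1S lower, SERPING1 higher; all genes 39.4%), 2 in BUTN (CD55 and SERPING1 higher; 36.9%), 2 in TNPR (CD55 and SERPING1 higher; 40.4%) and 3 in TNBU (CFB, CD55 and SERPING1 higher; 40%). These comparisons share the TN or Ctrl libraries. In these comparisons the shares called were near those of all genes or below them, apart from PRTN vs TN. Each of these counts includes SERPING1, which passed the filter only through the SCFA libraries. The 9 genes were also chosen with earlier results of these data known, so nothing is read from these shares.

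**Figure D2:**
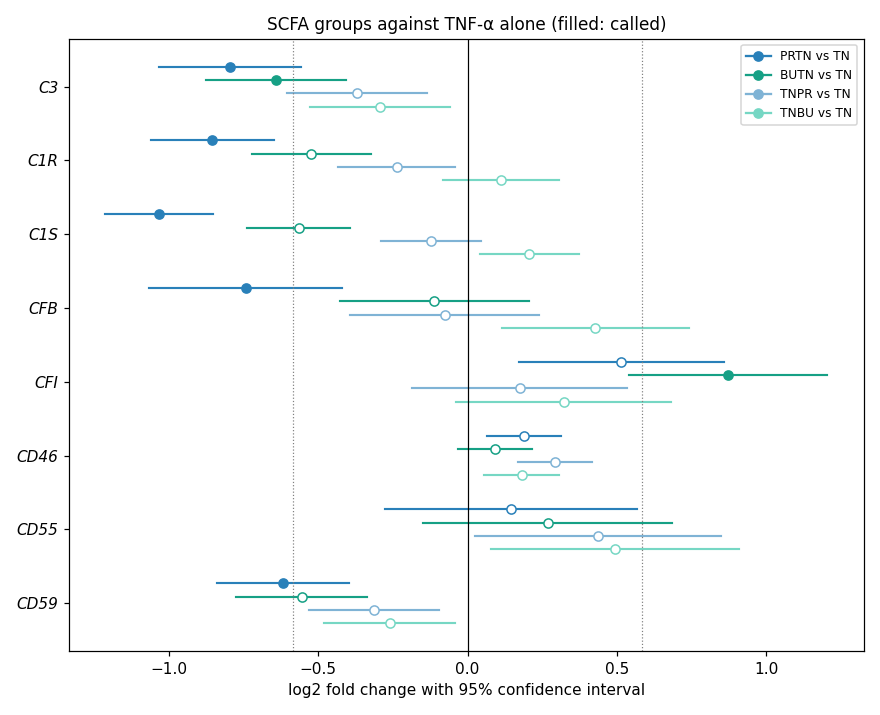
Log2 fold change (x axis) of 8 complement transcripts (y axis; SERPING1 is off this scale) in the 4 SCFA groups against TN, as points with 95% confidence intervals from limma; filled points were called and dotted lines mark a fold of 1.5. C3, C1R, C1S, CFB and CD59 have filled points on the lower side in PRTN, C3 also in BUTN, and CFI has a filled point on the higher side in BUTN.

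SCFAs given after TNF-α were compared with the same SCFA, dose and hours given before it. C1S was higher in TNPR than in PRTN by a log2 fold change of 0.91 (SE 0.08, limma adjusted p = 0.000490) and in TNBU than in BUTN by 0.77 (SE 0.08, adjusted p = 0.00111). C1R was higher by 0.62 (SE 0.09, adjusted p = 0.0210) and 0.63 (SE 0.09, adjusted p = 0.01003). These 2 of 9 genes were the calls in both comparisons, where 0.16% and 0.267% of all genes were called (0.0534% and 0.0945% higher). The 9 genes were chosen with earlier results of these data known, so nothing is read from these shares. For C1R and C1S the libraries compared did not overlap, and the share of all genes without overlap was not computed. C3, CFB and CD59 had values in the same direction with either SCFA and no call, 0.43 and 0.35 for C3, 0.67 and 0.54 for CFB, and 0.31 and 0.29 for CD59 (adjusted p of 0.114 to 0.285). CFI had -0.34 and -0.55, also not called (adjusted p = 0.418 and 0.101), except in TNBU vs BUTN without TNBU replicate 1 (-0.71, adjusted p = 0.0402). For CFB, DESeq2 called TNPR vs PRTN (0.67, adjusted p = 0.0416), and TNBU vs BUTN was called without TNBU replicate 2 (0.76, adjusted p = 0.0340).

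The C1R calls, and that of C1S with butyrate, rest on the shared spread of all groups. Fitted on the 4 libraries compared, the limma adjusted p was 0.184 for C1R in TNPR vs PRTN, 0.0935 in TNBU vs BUTN and 0.0654 for C1S in TNBU vs BUTN, with log2 fold changes of 0.62, 0.64 and 0.77. C1R also lost its call without PRTN replicate 1 (0.60), PRTN replicate 2 (0.60) or TNPR replicate 2 (0.49), and without BUTN replicate 1 (0.64) or BUTN replicate 2 (0.60). Order of addition and hours since TNF-α cannot be told apart here, as RNA of PRTN and BUTN followed the 3 h of TNF-α and that of TNPR and TNBU the later 24 h.

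**Figure D3:**
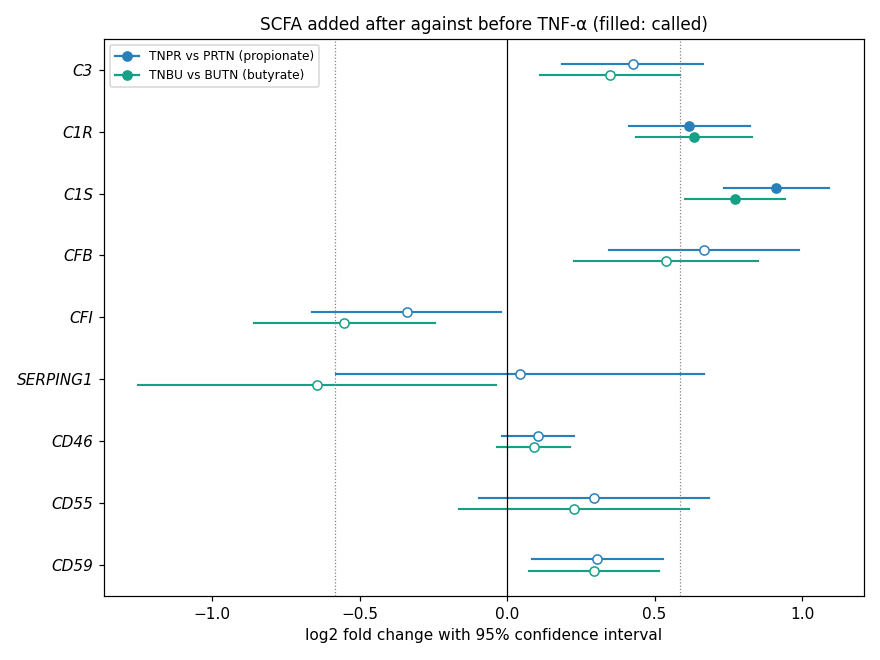
Log2 fold change (x axis) of the 9 transcripts (y axis) with the SCFA added after against before TNF-α, for propionate and butyrate, as points with 95% confidence intervals from limma; filled points were called and dotted lines mark a fold of 1.5. C1R and C1S carry the 4 filled points, at 0.62 to 0.91.

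SERPING1 (ENSG00000149131.15, chr11:57597387-57619171, plus strand) had 0 and 0 counts in Ctrl and 0 and 1 in TN. The pairs of SCFA libraries had 54 and 50 counts (PRTN), 74 and 81 (BUTN), 40 and 68 (TNPR), and 34 and 55 (TNBU). All 8 SCFA libraries lay above all 4 others, yet at 1.18 to 2.34 CPM this was the least abundant of the 9 transcripts per kb, at 0.209 to 0.322 CPM per kb. Against Ctrl, read at a floor of 3 counts per library, SERPING1 was at least 14.3-fold higher in PRTN, 21.6-fold in BUTN, 15.6-fold in TNPR and 14.02-fold in TNBU. Against the single count of TN the ratio was 84.4 in PRTN (95% interval 14.8 to 3365), 127 in BUTN (22.5 to 5064), 90.9 in TNPR (15.97 to 3622) and 83.0 in TNBU (14.5 to 3314), from exact Clopper-Pearson intervals that cover counting error only. It was called higher in all 4 SCFA groups against both TN and Ctrl, with limma adjusted p of 1.83e-05 to 0.000132. The filter admitted it through these groups, so the calls add nothing beyond the counts. BUTN lay above the other SCFA groups, without overlap, and the 0.04 in TNPR vs PRTN and -0.64 in TNBU vs BUTN were not called (adjusted p = 0.975 and 0.316).

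CFI (ENSG00000205403.12, chr4:109731008-109802150, minus strand) had CPM of 7.04 and 6.20 (Ctrl), 5.36 and 5.28 (TN), 8.22 and 7.03 (PRTN), 10.3 and 9.30 (BUTN), 6.75 and 5.31 (TNPR), and 7.36 and 6.04 (TNBU). BUTN lay above all other libraries, while the other groups formed a chain in which each overlapped the next. The log2 fold change of BUTN was 0.87 against TN (SE 0.15, limma adjusted p = 0.000363), a call, and 0.56 against Ctrl (SE 0.14, adjusted p = 0.00525), short of the fold threshold. The latter passed with DESeq2 (0.59), with relative log expression size factors (0.59), with library size alone (0.66) and without Ctrl replicate 1 (0.65) or BUTN replicate 2 (0.63). PRTN differed from TN by 0.52 (adjusted p = 0.0143), which was called without PRTN replicate 2 (0.59) or with library size alone (0.67).

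Of the membrane regulators, CD59 (ENSG00000085063.14, chr11:33703010-33736479, minus strand) had CPM of 333 and 326 (Ctrl), 382 and 398 (TN), 249.5 and 258 (PRTN), 259.6 and 271 (BUTN), 275 and 359 (TNPR), and 303 and 349 (TNBU). TN was above all other groups, PRTN and BUTN below them. PRTN was called lower than TN at -0.62 (SE 0.10, limma adjusted p = 0.000191), a call lost with library size alone (-0.46), and BUTN had -0.56 (adjusted p = 0.000487), which passed the fold threshold without TN replicate 1 (-0.61) or BUTN replicate 2 (-0.60). Against Ctrl, PRTN and BUTN had -0.38 and -0.31 (adjusted p = 0.00721 and 0.0204), short of that threshold.

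CD55 (ENSG00000196352.14, chr1:207321519-207386804, plus strand) had CPM of 9.96 and 10.1 (Ctrl), 13.7 and 13.4 (TN), 14.7 and 15.2 (PRTN), 15.5 and 17.1 (BUTN), 14.7 and 23.1 (TNPR), and 16.4 and 22.0 (TNBU). Every treated library lay above both Ctrl libraries. Against Ctrl the log2 fold change was 0.43 in TN (SE 0.21, limma adjusted p = 0.337) and 0.58 in PRTN (adjusted p = 0.0302), neither called, and 0.70 in BUTN (SE 0.20, adjusted p = 0.0110), 0.87 in TNPR (SE 0.20, adjusted p = 0.00257) and 0.93 in TNBU (SE 0.20, adjusted p = 0.00178), all called. The BUTN call was lost without Ctrl replicate 1 (0.69), Ctrl replicate 2 (0.71) or BUTN replicate 2 (0.63), and the TNPR call without TNPR replicate 2 (0.50). PRTN passed the fold threshold with DESeq2 (0.60), relative log expression size factors (0.60), library size alone (0.68) or the literal geometric mean as filter (0.59). Against TN, CD55 was not called in any SCFA group, and TNPR and TNBU were called with library size alone (0.61 and 0.69) or without TNPR replicate 1 (0.73) and TNBU replicate 1 (0.67), respectively.

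CD46 (ENSG00000117335.19, chr1:207752037-207795513, plus strand) was called in no comparison. Its CPM were 342 and 327 (Ctrl), 361 and 337 (TN), 397 and 398 (PRTN), 363 and 380.1 (BUTN), 411 and 444 (TNPR), and 390.5 and 401 (TNBU). All SCFA libraries lay above all Ctrl and TN libraries. Its largest log2 fold change was 0.35, in TNPR vs Ctrl (SE 0.06, limma adjusted p = 0.000162, 95% interval 0.23 to 0.48), and the whole interval lay below a fold of 1.5. Its start lies 430518 bases from that of CD55 on the same strand, and the antisense gene MIR29B2CHG overlaps it.

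By the root mean square difference of the 5 log2 fold changes against Ctrl, over 11940 genes with at least 1 CPM in their highest group, the gene closest to C1S was C1R (0.106), followed by COL15A1 (0.155) and CTAGE8 (0.190). The matches of SERPING1 are left out, as its fitted fold changes against libraries at 0 depend on the offset. The other 7 genes had no log2 fold change against Ctrl over 1 and were not matched.

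Of 53 other complement genes listed by role, 30 were tested. The other 23 had at most 12 counts in any library, and 10 of them had none at all. In TN vs Ctrl 1 of the 30 was called, THBD, higher (0.764% of all tested genes were higher and 0.534% lower). In PRTN, BUTN, TNPR and TNBU vs TN, 13, 14, 13 and 13 were called higher and 3, 2, 2 and 1 lower, where 23.9%, 23.1%, 24.9% and 25% of all tested genes were called higher and 16.7%, 14.8%, 16.9% and 16.5% lower. Against Ctrl 10, 12, 9 and 14 were higher and 3, 2, 2 and 2 lower, beside 22.6%, 22%, 23.6% and 23.6% higher and 16.9%, 14.9%, 16.8% and 16.5% lower over all genes. Of the 30, 7 (FCN3, COLEC11, C4BPB, VTN, CPN2, CSMD2 and CR2) passed the filter on low counts only through the SCFA libraries, so nothing is read from the totals. Of the 23 that passed it in the Ctrl and TN libraries alone, 10, 10, 8 and 9 were higher than TN and 3, 2, 2 and 1 lower. The share called among all genes that passed it in this way was not computed, so nothing is read from these counts. In TNPR vs PRTN and TNBU vs BUTN limma, edgeR and DESeq2 called 0 of the 30. Over all genes limma called 0.0534% and 0.0945% higher and 0.107% and 0.173% lower. Of the 30, 3 and 5 had an unadjusted limma p under 0.05, and the share of all genes under it was not computed. Many of the genes called were at very low counts, and 13 that reached 1 CPM in a group are described here.

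CLU, which encodes clusterin, a soluble inhibitor of the membrane attack complex, had 16.9 to 19.1 CPM in Ctrl, at most 16.9 in TN and 275 to 350 in the 8 SCFA libraries. Against TN its log2 fold changes were 4.36, 4.28, 4.30 and 4.36 in PRTN, BUTN, TNPR and TNBU (limma adjusted p of 4.58e-10 to 8.61e-10). CLU thus had 19.4 to 20.6 times the TN mean in each SCFA group. SUSD4, a membrane regulator with complement control domains, had 0.287 to 0.410 CPM without and 5.92 to 7.66 with an SCFA (log2 fold changes of 4.11 to 4.30 against TN). COLEC12, a scavenger receptor collectin, had 0 to 0.179 CPM without and 6.23 to 15.0 with an SCFA. The smaller rises included C2, the protease precursor paired with C4 in the classical convertase, from a mean of 0.309 CPM in TN to 1.15 to 1.43, and C5, from which the terminal pathway starts, from 5.12 to 8.08 to 8.92. C8G, a chain of the C8 component, was called higher than TN in all SCFA groups, at 0.724 to 1.09 CPM. ITGAX, a chain of complement receptor 4, had 4.08 CPM in TN and 8.49 to 11.2 in the SCFA groups. C3AR1, the receptor of C3a, was called higher than Ctrl (1.14 CPM) in PRTN (1.83), BUTN (2.42) and TNBU (2.31), and TN had 2.09.

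C1RL, a protease related to C1R, was lower in all 4 SCFA groups, at 5.75 to 9.01 CPM against 25.4 in TN, with a log2 fold change of -2.14 in PRTN, -1.67 in BUTN and -1.62 in TNPR (limma adjusted p of 1.66e-08 to 1.81e-07). MASP2, a protease of the lectin pathway, was called lower in PRTN (1.51 CPM) than in Ctrl (2.35 CPM; -0.63, adjusted p = 0.0355). THBD, thrombomodulin, had 3.67 and 3.66 CPM in Ctrl and 7.60 and 9.30 in TN, a log2 fold change of 1.195 (SE 0.14, adjusted p = 0.000605). Against TN, THBD was lower in PRTN (-1.13), BUTN (-0.77) and TNPR (-0.77), and TNBU, at 6.74 CPM, was called against Ctrl and not against TN. C4A was called higher than TN in PRTN and C4B in BUTN, but the 2 genes are near-identical, reads may be divided between them either way, and the values are uncertain.

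**Figure D4:**
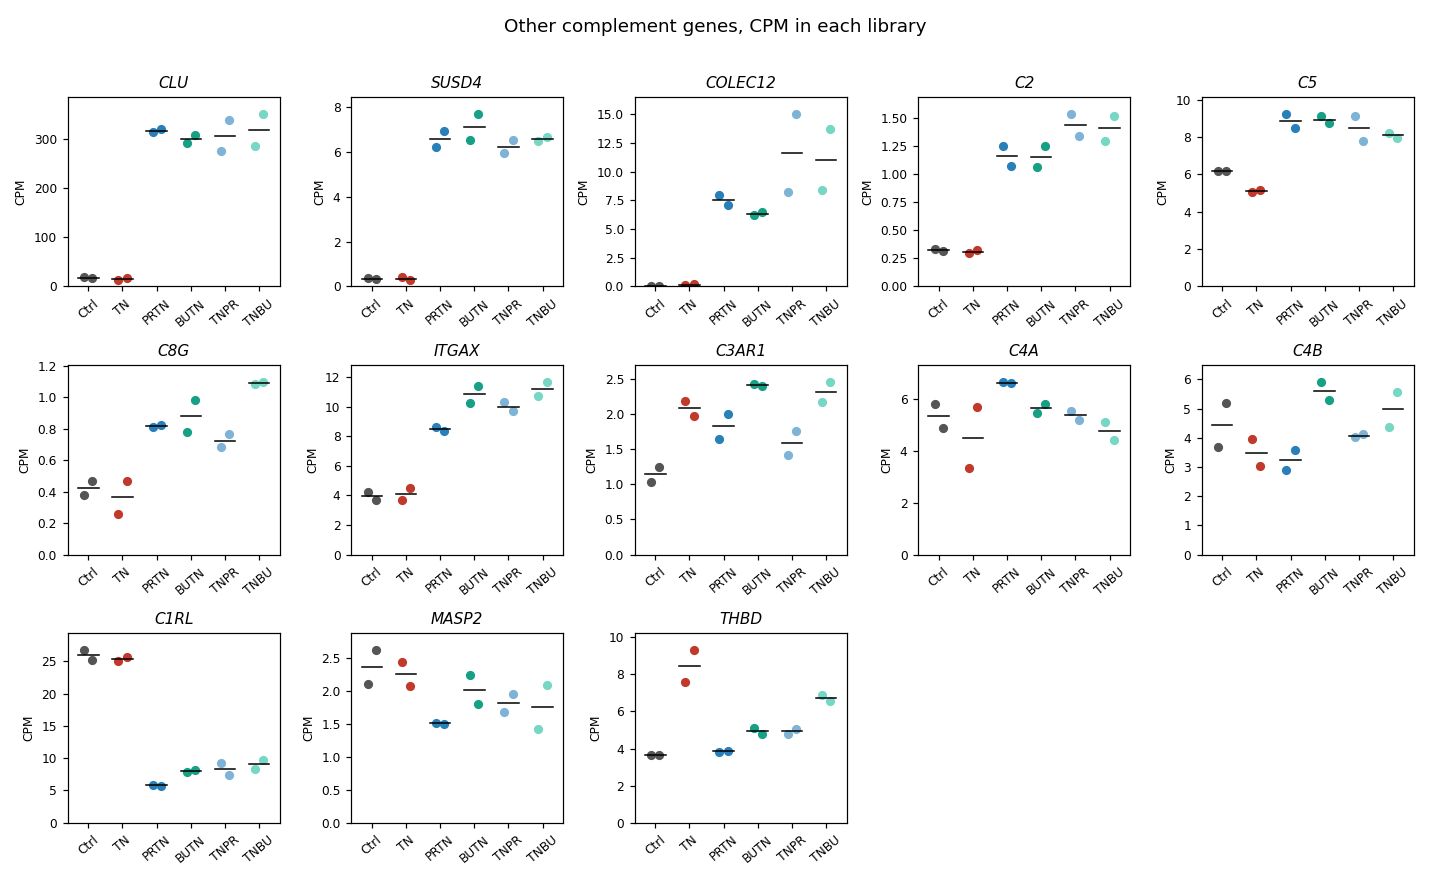
CPM of 13 other complement genes that were called in at least 1 comparison and reached 1 CPM, on linear axes from 0, with 1 point per library, 2 per group, and a bar at the group mean. The SCFA libraries lie above Ctrl and TN for CLU, SUSD4, COLEC12, C2, C5, C8G and ITGAX and below them for C1RL, and THBD is highest in TN.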

How the data were processed

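The authors prepared stranded polyadenylated RNA libraries of HK2 cells, sequenced them on an Illumina HiSeq instrument, aligned reads to GRCh38 with STAR (2.6.1a in the submitters' processing notes, which also name FastQC 0.11.5) and estimated expected counts per gene of GENCODE release 26 with RSEM. The deposited expected counts are neither scaled nor filtered, and 19.3% are not whole. The RSEM version and strand setting are not given in the sources used here. Groups came from each library's label.

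Counts were tested with limma 3.58.1 (voom) in R 4.3.3 with TMM factors of edgeR 4.0.16, on all 12 libraries with a mean per group, after genes with a geometric mean of the count plus 1, minus 1, under 1 had been removed (33936 genes). Prior degrees of freedom were 6.12, and 11 comparisons were made. The steps were tested on simulated data with changes in TN vs Ctrl only, which does not cover the SCFA comparisons. Alternatives were edgeR and DESeq2 1.42.0 on rounded counts, other scalings, filters, fold thresholds and libraries in the fit, the replicate number as a block, and leaving out each replicate. Named genes were the 9 members, other complement genes called in a comparison with at least 1 CPM in their highest group (1 of these is not reported here), and the 3 genes closest to each member whose log2 fold change against Ctrl exceeded 1 (given for C1S; left out for SERPING1). The members and lists were chosen with earlier results of these data known. Gene positions and exon lengths are of GENCODE release 44, whose overlaps can differ from release 26. At this depth 3 counts are 0.0867 to 0.112 CPM, and intervals from counts cover counting error only.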

Additional observations from a re-analysis of the deposited data

Results flagged for a closer look

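C1R and C1S differed between the groups with an SCFA added after and before TNF-α, by a test of the difference itself. The log2 fold change of TNPR vs PRTN was 0.62 for C1R and 0.91 for C1S, and that of TNBU vs BUTN was 0.63 for C1R and 0.77 for C1S (limma-voom, 2 libraries per group, adjusted p under the threshold in the fit of all 12 libraries). All libraries with the SCFA added after TNF-α were higher than those with it added before. When only the libraries compared were fitted, C1S in TNPR vs PRTN alone kept its call. Order of addition and hours since TNF-α cannot be told apart here, and the cause was not tested.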

How the results depend on the processing

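Of 1419 alternative values for the 9 genes, 1296 kept direction and side of the threshold, 62 gained a call, 30 lost one and 31 changed sign, all of them without a call. Scaling to library size alone moved the median of all tested genes most in TNBU vs TN, from 0.09 to 0.29, and gave 2 calls in TNPR vs TN and 3 in TNBU vs TN. It called 10364 and 10178 of all 24342 tested genes there, against 10184 and 10121 in the main fit. The literal geometric mean removed SERPING1 by construction and left 0 calls in TNPR vs TN, 0 in TNBU vs TN, 1 in BUTN vs Ctrl and 1 in TNPR vs Ctrl. With it 19096 genes were tested, and 8440, 8251, 7270 and 8160 of them were called in these comparisons. Adjusted p alone gave 6, 5 and 7 calls in BUTN, TNPR and TNBU vs TN and 7, 9, 6 and 5 in PRTN, BUTN, TNPR and TNBU vs Ctrl. Over all 24342 tested genes it called 13414, 14041 and 13964 vs TN, and 13526, 13131, 13714 and 13684 vs Ctrl. A fold over 2 left 2 in PRTN vs TN, 1 in BUTN vs TN, 2 in PRTN vs Ctrl, 1 each in BUTN, TNPR and TNBU vs Ctrl, and 0 in TNPR vs PRTN and TNBU vs BUTN. Of all tested genes it left 6698 and 6203 in PRTN and BUTN vs TN. Against Ctrl it left 6488, 6011, 6656 and 6587, and in the last 2 comparisons 23 and 30. Fits of the groups compared left 1 in TNPR vs PRTN and 0 in TNBU vs BUTN, where 7 of all 25157 and 4 of all 25049 genes were called. Leaving out 1 replicate at a time gave 3 to 6 calls in BUTN vs TN, 1 to 2 in TNPR vs TN and TNBU vs TN, 1 to 4 in BUTN vs Ctrl, and 1 to 2 in TNPR vs PRTN and TNBU vs BUTN. The number of all genes called moved with these settings too, so nothing is read from the counts of the 9 genes. The cause of these shifts was not tested beyond that. The fit of Ctrl, TN, PRTN and BUTN was chosen after seeing the data.

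C1R in TN vs Ctrl was 0.0057 with edgeR, 0.013 with DESeq2, 0.0088 with relative log expression factors, 0.011 with the literal geometric mean, 0.013 with the groups compared, 0.011 without TNPR and TNBU, and -0.13 to 0.13 leaving out replicates. CD59 in TNBU vs Ctrl was 0.0089 with DESeq2, 0.0061 with relative log expression factors, 0.0022 with the literal geometric mean, 0.12 with library size and -0.13 to 0.058 leaving out replicates. Library size alone gave -0.047 for C1S in TN vs Ctrl, 0.042 for CFB in BUTN vs TN, 0.052 for C1S and 0.096 for CFB in TNPR vs TN, and 0.0048 for C1S and 0.048 for CD59 in TNPR vs Ctrl. CFI in TNBU vs Ctrl was -0.018 with the filter of 1 count in 1 library, -0.0035 with the groups compared and -0.16 to 0.14 leaving out replicates. Leaving out replicates also gave -0.075 to 0.094 for C1S in TN vs Ctrl, -0.032 to 0.22 for C1R in TNBU vs TN, -0.36 to 0.10 for CFB in TNPR vs TN, -0.31 to 0.092 for CD59 in TNPR vs Ctrl, -0.40 to 0.48 for SERPING1 and -0.052 to 0.62 for CD55 in TNPR vs PRTN, and -0.047 to 0.29 for CFI in TNPR vs TN.

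The check for pairing by replicate number gave correlations of -0.0791 to 0.24 for 15 pairs of groups, with 1 over 0.1 (TNPR and TNBU), and over genes above 10 CPM from -0.288 to 0.416, with 4 over 0.1. Since not every pair passed 0.1, the numbers were not used as pairs. The highest value in both sets was that of TNPR and TNBU, so these groups may not vary independently of each other. The source of this was not tested. With the replicate block the calls were 0 in TN vs Ctrl, 6, 3, 1 and 1 in PRTN, BUTN, TNPR and TNBU vs TN, 4, 2, 2 and 3 against Ctrl, and 2 and 2 in TNPR vs PRTN and TNBU vs BUTN. Of all 24342 tested genes, 312 were called in TN vs Ctrl, and 9862, 9184, 10184 and 10079 vs TN. Against Ctrl they were 9559, 8934, 9804 and 9703, and in the last 2 comparisons 28 and 81. Of 318 alternative counts of other complement genes, 280 stayed within 1.5 times. Depth limits SERPING1 in Ctrl and TN, where 3 counts are 0.103 to 0.112 CPM.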
